A study of Drosophila melanogaster with 2 samples.

Results

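The regions described here were 1286 ChIP-seq peaks that were in the pooled list of the series, made from its 2 replicates, and not in its conservative list. They were chosen by the rule that a peak of the pooled thresholded list overlapped no peak of the conservative thresholded list by 1 bp or more. They made up 29.7% of the 4328 peaks of the pooled list on the 6 chromosome arms; the remaining 3042 overlapped the conservative list, which held 3260 peaks there. The experiment was an anti-GFP chromatin immunoprecipitation from whole Drosophila melanogaster prepupae, aged 1 day, of a transgenic line that carried a CG11294-eGFP fusion. All samples shared that genotype, stage and antibody, and they formed 1 group of 2 biological replicates. One label gave the antibody as CG11294 and the description gave anti-GFP, and which protein it recognised was not tested. No control immunoprecipitation or input was analysed here, so recovery of chromatin that needed no tagged protein cannot be told apart from binding, and whole animals mix all cell types.

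CG11294 encodes a homeodomain protein. Homeodomains are DNA-binding domains that typically contact short AT-rich sites around a TAAT core, and paired-like members of the family can bind palindromes of that core as dimers. GAGA factor, a zinc finger protein of flies, binds runs of GA repeats at many promoters and is known for opening chromatin there. The irreproducible discovery rate (IDR) compares the ranks of peaks between 2 sets: the conservative list rests on the ranks in the separate replicates, and the pooled list on ranks within the combined data, so a region that ranks well in only 1 replicate can enter the pooled list alone.

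The sequences below were picked for the words they hold and illustrate the contrast in words and base composition described further on. Each is the plus strand of build dm6 (RefSeq Release 6 genome), 101 bp centred on the summit of one of the strongest pooled-only peaks that held a named word; capitals mark the word, which may lie on either strand. The first pair, near the starts of CG11247 (chr3L:21728749-21728849) and Liprin-beta (chr3L:13513196-13513296), came from peaks that only replicate 1 listed; the capitals mark CACTG and the homeodomain core TAATTA.
CG11247: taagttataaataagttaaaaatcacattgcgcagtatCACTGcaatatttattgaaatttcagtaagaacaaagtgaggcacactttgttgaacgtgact
Liprin-beta: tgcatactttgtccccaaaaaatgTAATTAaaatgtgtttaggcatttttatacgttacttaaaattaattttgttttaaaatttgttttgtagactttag
The next 3 came from peaks that only replicate 2 listed, near CG7841 (chr3L:15508315-15508415), lawc (chrX:8409914-8410014) and CG32085 (chr3L:11680416-11680516). The capitals mark CACTG, read on the other strand as CAGTG, in the first and the GA repeat GAGAGAG, read as CTCTCTC, in the others. The CG32085 sequence also holds CACTG, which is not in capitals.
CG7841: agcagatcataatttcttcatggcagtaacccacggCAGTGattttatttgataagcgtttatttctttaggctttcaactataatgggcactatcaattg
lawc: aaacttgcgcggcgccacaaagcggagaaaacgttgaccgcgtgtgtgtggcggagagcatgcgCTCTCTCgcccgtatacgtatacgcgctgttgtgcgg
CG32085: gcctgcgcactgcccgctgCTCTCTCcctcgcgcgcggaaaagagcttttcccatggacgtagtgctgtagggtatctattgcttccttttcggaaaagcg
The last came from an intronic summit nearest to the start of CG9921 (chrX:16332989-16333089), the strongest of the pooled-only peaks and one of the few that both replicates listed. Its capitals mark CACTG, and it also holds TAATTA, which is not in capitals.
CG9921: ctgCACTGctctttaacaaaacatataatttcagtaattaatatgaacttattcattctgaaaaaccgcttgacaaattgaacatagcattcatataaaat
Of these 101 bp, G and C made up 30.7% at CG11247 and 22.8% at Liprin-beta, against 60.4% at lawc and 57.4% at CG32085. CG7841, also from replicate 2, had 35.6%, so the single windows do not divide cleanly. Among the 20 strongest members, most of the 16 that replicate 2 alone listed had under 40% GC in the 200 bp at the summit. Oatp30B (30%) and smg (32%) were below that value, and Dll (67%) and Cat (42.5%) were above it. Over all members of replicate 2 alone, 35.9% were below it.

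The pooled-only peaks were weaker than the conservative ones, as their selection required, and these values are given as description with no test. Their deposited signal, on a scale not given in the sources used here, ran from 2.17 to 283 with a median of 64.0, against a median of 110.1 in the conservative peaks. Of the 1286, 1248 had the same width of 340 bp, a share of 97.0% against 64.7% of the conservative peaks. All 54 members with a signal under 10 had another pooled summit within 400 bp. A conservative summit lay within 1000 bp of 144 members (11.2%), and the median distance to one was 7760 bp. Merging members that overlapped one another left 1190 regions.

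Few of these peaks were strong in the pooled ranking. The strongest stood at rank 345 and 23 were among the strongest 1000 peaks. At the threshold of the pooled list, a −log10 IDR of 2, the 3 members nearest inside lay near klu, CG8034 and disco-r with 2.0003, 2.0014 and 2.0019 and signals of 47.1, 72.2 and 58.7. The 3 peaks nearest outside lay near CG42674, klu and shn with 1.9998, 1.9992 and 1.9982 and signals of 48.1, 9.80 and 32.9. In the comparison between replicates 1119 members had an IDR value, from 0.0509 to 2.00 on the −log10 scale with a median of 1.38, and 719 of them (64.3%) lay between 1 and 2. The other 167 members (13.0%) had none. A further 91 peaks of the pooled ranked list were at or past the threshold yet in neither thresholded list, with signals up to 1402; the reason is not given in the sources used here, and they stand in the background set below.

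Most of the pooled-only peaks were in the thresholded list of a single replicate. Replicate 1 alone listed 473 of them (36.8%) among its thresholded peaks, replicate 2 alone listed 351 (27.3%), neither listed 452 (35.1%) and both listed 10 (0.778%). The median signal of the first class was 51.7 in replicate 1 and 21.4 in replicate 2, and that of the second was 17.9 and 52.7. Members in neither list had medians of 27.0 and 29.5. Among the 1022 members with a relaxed peak in both replicates, the higher signal was a median of 2.17 times the lower, and 56.8% exceeded 2-fold; the conservative peaks had a median of 1.39 and 16.7%. These ratios follow from the selection and carry no test.

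**Figure D1:**
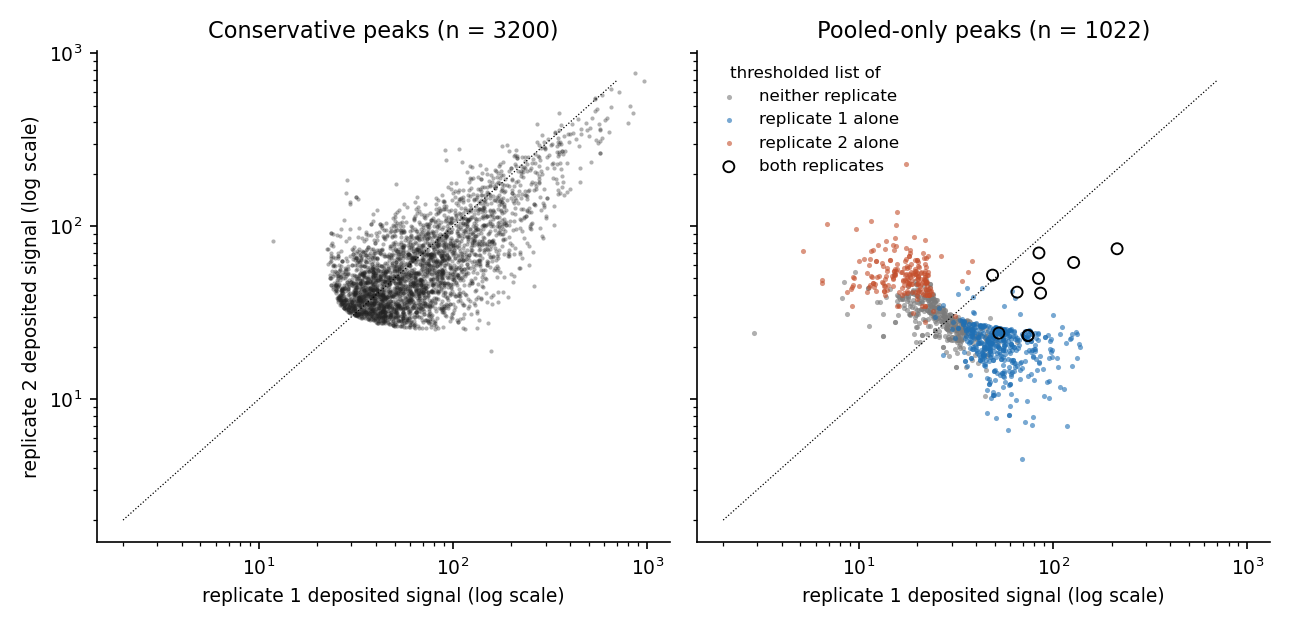
Deposited signal of each peak in replicate 1 (x) and replicate 2 (y), both on log scales, for the 3200 conservative peaks (left) and 1022 pooled-only peaks (right) with a relaxed peak in both replicates; the dotted line marks equal signal. The conservative peaks lie along the line, while the pooled-only peaks lie on either side of it according to the thresholded list that held them; the rule that chose them fixes this shape.

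The strongest pooled-only peaks mostly overlapped no deposited relaxed peak of replicate 1. Of the 20 strongest, 16 were listed by replicate 2 alone, 2 by replicate 1 alone and 2 by both, and 15 overlapped none of the 65336 relaxed peaks of replicate 1 on the arms. The peak upstream of asRNA:CR45999 (chr3R:4395225-4395414) had a pooled signal of 279.9 and 129 in replicate 2. The summit 316 bp downstream of the start of Cat, which encodes catalase (chr3L:18822835-18823016), had 228 in the pooled list and 179.8 in replicate 2. Neither overlapped a relaxed peak of replicate 1. The same held for peaks upstream of Oatp30B, an organic anion transporter, of smg, which encodes the RNA-binding repressor Smaug, and of MYPT-75D, CG7806, Dph1 and CG3638, for lawc, and for peaks in or near ck, tai, CG31145, fwe and by. The pooled signal was far above that of replicate 2 at Oatp30B (245 and 84.7) and ck (173 and 51.3). At tai it was close (167.6 and 162.4). Why replicate 1 listed no peak at these sites was not tested, and its absence from the list does not show absence of signal. The summit upstream of Dll, the limb homeodomain gene, had 17.6 in replicate 1 and 231 in replicate 2. The reverse was seen at CG11247, with 132 in replicate 1 and 24.0 in replicate 2, and at Liprin-beta, a scaffold protein gene, with 137.8 in replicate 1 and a rank of 16340 among the relaxed peaks of replicate 2.

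Over all members, 220 overlapped no relaxed peak of replicate 1, and their median distance to the nearest relaxed summit of that replicate was 2052.5 bp. For replicate 2 these were 48 members and 623 bp. The relaxed lists held 65336 and 89463 peaks on the arms, so replicate 2 offered more peaks to overlap. Of the 10 members that both replicates listed, the strongest were CG9921, with 213 and 74.2, and Leash, with 127.5 and 61.8. The weakest of the 10, near DPCoAC, had a pooled signal of 3.64 beside 84.5 and 70.2 in the replicates and lay 200 bp from a conservative summit. A replicate's value is that of its strongest peak overlapping the member, so it can belong to a neighbouring summit. Members near CG12268 with pooled signals of 91.3 and 55.3 carried the same 74.3 and 23.4.

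The base composition of the pooled-only peaks depended on the replicate that held them. This division was chosen after the values were seen; sequence was not used by the rule, and the tests compare the lists of 2 libraries, with peaks as units, so their p-values measure spread over peaks and not over animals. In the 200 bp around the summit, 83.7% of the 473 members of replicate 1 alone had under 40% GC (95% Wilson interval 80.1 to 86.8%), against 35.9% of the 351 members of replicate 2 alone (31.1 to 41.0%). The odds ratio was 9.18 (Fisher's exact test, 2-sided, p = 4.71e-46). Mean GC was 34.2% ± 7.77 (SD, n = 473) and 43.8% ± 8.56 (SD, n = 351). Members that neither replicate listed stood between them, with 54.0% under 40% GC.

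The change of GC content from flank to summit ran in opposite directions. In members of replicate 1 alone, the mean difference in GC between the summit and a window 500 bp to the left was −10.8 percentage points, and 82.9% of the peaks were lower at the summit. In members of replicate 2 alone it was 4.34 points, and 39.6% were lower at the summit (odds ratio 7.38, Fisher's exact test, p = 3.66e-38). The conservative peaks had a mean difference of −7.32 points, with 73.4% lower at the summit. The 94238 relaxed peaks of the pooled ranked list that overlapped neither thresholded list, the background here, had one of 4.43 points, with 34.4% lower at the summit. Members of replicate 1 alone thus had an AT-rich centre, as the conservative peaks did, and those of replicate 2 alone had none on average. Conservative peaks of a single replicate differed in the same order, with −9.64 points for replicate 1 and −4.05 for replicate 2. Of these, 80.2% and 65.2% were lower at the summit (odds ratio 2.17, Fisher's exact test, p = 1.41e-07).

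**Figure D2:**
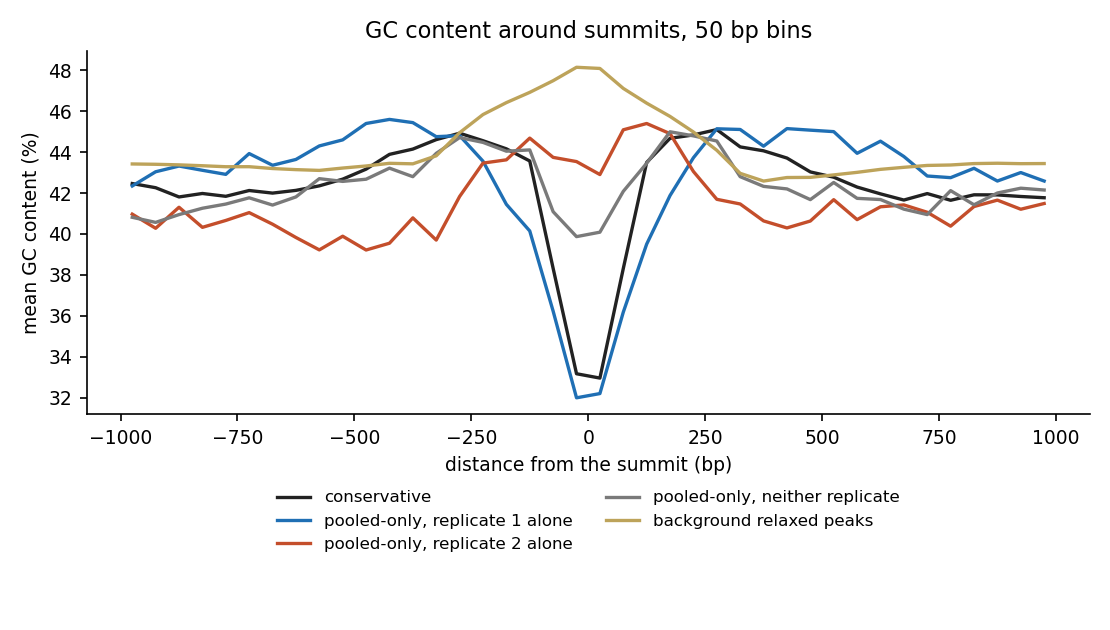
Mean GC content (%) in 50 bp bins by distance from the summit (bp) for conservative peaks, pooled-only peaks of replicate 1 alone, of replicate 2 alone and of neither replicate, and background relaxed peaks. GC falls at the summit in the conservative peaks and in those of replicate 1 alone, and has no such fall in those of replicate 2 alone.

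The shift was graded over GC content and was also present, in smaller size, in the conservative peaks. Among members with under 30% GC, 69.8% belonged to replicate 1 alone and 5.94% to replicate 2 alone; among those with 50% or more, these shares were 10.2% and 46.3%. For members with a relaxed peak in both replicates, the median log2 ratio of replicate 2 to replicate 1 signal was −1.27 under 30% GC and 0.79 at 50% or more. The conservative peaks, which were kept for ranking alike in the replicates, went from −0.53 to 0.29 between the same bins. The conservative peaks that only 1 replicate listed differed likewise, with 82.2% of 708 under 40% GC for replicate 1 and 63.8% of 362 for replicate 2 (odds ratio 2.62, Fisher's exact test, p = 8.38e-11). The whole thresholded lists also differed: 83.3% of 3217 peaks of replicate 1 and 66.4% of 2708 peaks of replicate 2 had under 40% GC. Mean GC of the relaxed lists was 45.6% and 47.3%. The number of relaxed peaks also differed between the replicates, 65336 and 89463, and its part in this was not tested.

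**Figure D3:**
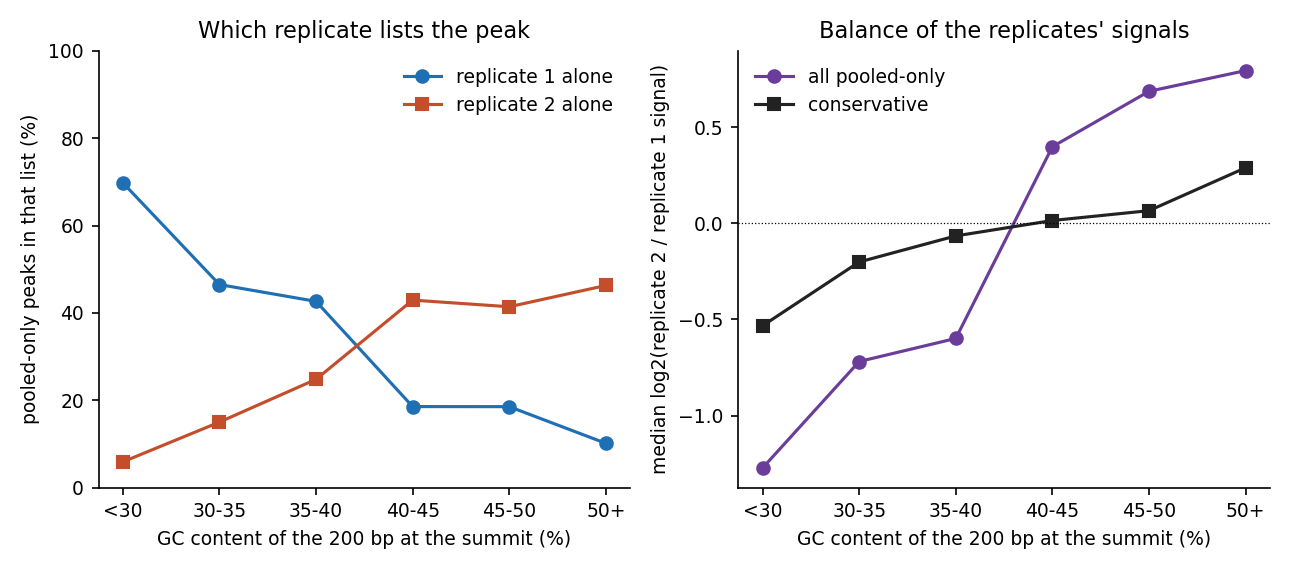
Left: share (%) of pooled-only peaks listed by replicate 1 alone and by replicate 2 alone in 6 bins of GC content of the 200 bp at the summit. Right: median log2 ratio of replicate 2 to replicate 1 signal in the same bins for pooled-only and conservative peaks; both lines rise with GC, from −1.27 to 0.79 and from −0.53 to 0.29.

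The GA repeat was more frequent in the peaks of replicate 2. GAGAGAG, searched on both strands of the 200 bp, was in 19.9% of the members of replicate 2 alone and 1.90% of those of replicate 1 alone (odds ratio 0.0779, Fisher's exact test, p = 8.15e-18 adjusted over 21 motifs). Within 4 strata of GC content the common odds ratio was 0.129 (adjusted p = 2.99e-06, Cochran-Mantel-Haenszel chi-square test). Background peaks held it in 2.89%. In members of replicate 2 alone it was in 5.70% of the left flanks, so it was 3.50 times as frequent at the summit (exact McNemar test, adjusted p = 2.36e-07). Its occurrences there averaged 8.69 per 100 peaks and 25 bp within 50 bp of the summit and 1.5 beyond 250 bp; in members of replicate 1 alone they averaged 0.159 and 1.59. The CA repeat CACACACA showed the same order, with 10.5% and 1.69% (exact test, adjusted p = 1.55e-07), but its difference did not pass within GC strata (adjusted p = 0.0576). In conservative peaks of a single replicate GAGAGAG was in 5.52% for replicate 2 and 2.82% for replicate 1, which did not pass (exact test, adjusted p = 0.166).

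TAAT, the core word of homeodomain sites, was commoner on the side of replicate 1. It was in 93.7% of the members of replicate 1 alone and 66.7% of those of replicate 2 alone (Fisher adjusted p = 1.41e-22), and the difference held within GC strata (common odds ratio 2.96, adjusted p = 0.000119). The longer homeodomain words did not hold in the same way. TAATTA was in 18.8% and 8.83% (odds ratio 2.39, Fisher adjusted p = 0.000239), and within GC strata it no longer passed (1.36, adjusted p = 0.674). The palindrome of TAAT with 2 bp between was in 3.59% and 0.855% (Fisher adjusted p = 0.0339) and also no longer passed within GC strata (2.11, adjusted p = 0.920). With 3 bp between, the shares were 2.75% and 2.85%, which did not pass (Fisher adjusted p = 1.00). At the summits of replicate 1 alone TAATTA was 2.07 times as frequent as in their flanks (exact McNemar test, adjusted p = 0.000170). TATAAA, the TATA box word, was in 38.9% and 19.9% (Fisher adjusted p = 2.64e-08), which also did not pass within GC strata (adjusted p = 0.920). The CACTG shares of the members, 43.6% and 45.9%, did not pass (Fisher adjusted p = 0.688), while in conservative peaks of a single replicate it was in 47.3% for replicate 1 and 59.7% for replicate 2 (odds ratio 0.607, Fisher adjusted p = 0.00252). In the members it was above the flank in both classes, 1.26 and 1.71 times (exact McNemar test, adjusted p = 0.0155 and 2.24e-06).

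**Figure D4:**
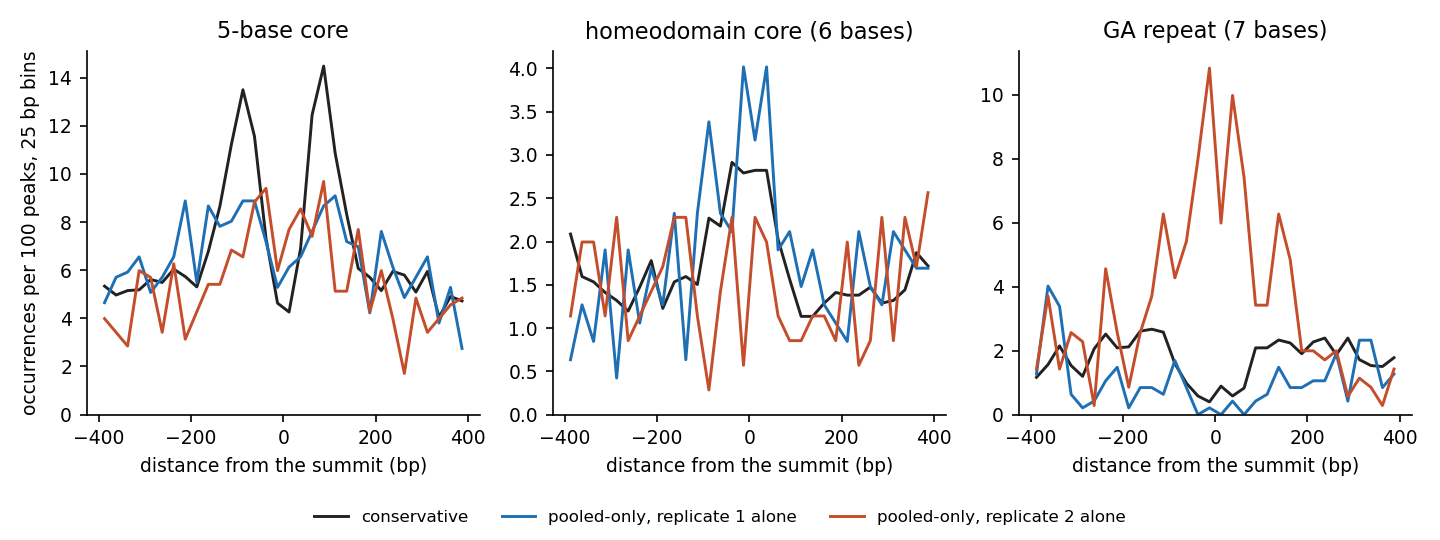
Occurrences per 100 peaks in 25 bp bins by distance from the summit (bp) of CACTG (left), TAATTA (middle) and GAGAGAG (right) in conservative peaks and in pooled-only peaks of replicate 1 alone and replicate 2 alone. The GA repeat peaks at the summit in replicate 2 alone, and the conservative peaks have shoulders of CACTG on both sides of the summit.

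Over all 6-letter words, with reverse complements joined, 459 differed between members of replicate 1 alone and of replicate 2 alone, a background of 22.1% called (adjusted p under 0.05 and a ratio of shares of at least 1.5 in either direction, Fisher's exact test). Of these, 196 were more frequent with replicate 1, and 32 of the 196 held only A and T. The other 263 were more frequent with replicate 2, and 198 of them held 4 or more G or C. The largest ratios for replicate 1 were those of GTAGTA (7.82% and 1.71% of the peaks), CTAATC (6.13% and 1.42%), GATATC (4.23% and 1.14%) and ATTAAT (22.0% and 6.55%), then CCTGTA (5.50% and 1.71%) and, equal to it, CTAGTA. For replicate 2 they were GCCCCC (1.27% and 9.97%), CGAGCG (2.11% and 14.8%), CGCGAG (1.48% and 9.97%), CGACGC (1.48% and 9.69%), CGGGAG (1.06% and 6.84%) and CCCCCG (1.06% and 6.55%). 

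Set against the conservative peaks as a whole, the pooled-only peaks were less AT-rich. GC was under 40% in 60.2% of the members and 76.3% of the conservative peaks (odds ratio 0.471, Fisher's exact test, p = 2.20e-26), with 16.7% in the background. This difference turned with the replicate: members that replicate 2 listed had 37.1% against 76.1% of the conservative peaks it listed (odds ratio 0.185), while members that replicate 1 listed had 83.6% against 79.6% (odds ratio 1.31, Fisher exact p = 0.0455). Of the 6-letter words, 173 differed, a background of 8.32% called; 160 were more frequent in the members, and 157 of the 160 held 4 or more G or C. CGCGCG led them with 2.49% against 0.828%, followed by CGGCCG (2.26% against 0.767%), CGGGAC (2.64% against 1.04%), GCGCGC (3.81% against 1.6%), CGTCGC (6.92% against 3.01%) and GGACGA (3.19% against 1.41%). The 13 less frequent words were led by GGTACC (0.311% against 1.38%), GGTTAC (2.33% against 4.23%), AGCATA (7.23% against 12.5%), CCTAAG (2.64% against 4.45%), GCTGTA (4.98% against 8.31%) and GGTCAA (3.42% against 5.67%). For members and conservative peaks that replicate 1 listed, 0 words were called (Fisher's exact test; 117 had an unadjusted p under 0.05), and for those that replicate 2 listed 530 were.

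Of the 21 motifs, 5 differed between members and conservative peaks. GAGAGAG was in 8.01% of the members and 3.74% of the conservative peaks (odds ratio 2.24, Fisher adjusted p = 1.31e-07), and the difference passed within GC strata (1.69, adjusted p = 0.00231). Of the 103 members with it, 70 were those of replicate 2 alone; in replicate 1 alone its share was 1.90% of the members and 2.82% of the conservative peaks, and in neither replicate 5.31% and 4.23%. TAAT was less frequent, 81.3% against 92.3% (Fisher adjusted p = 1.82e-23), also within GC strata (0.519, adjusted p = 2.55e-08), but in peaks of replicate 1 alone the shares were 93.7% and 93.5%. CACTG was in 46.0% of the members and 52.6% of the conservative peaks (odds ratio 0.766, Fisher adjusted p = 0.000408), and within GC strata its odds ratio was 0.759 (adjusted p = 0.000507). The other 2 calls were lost within GC strata. CACACACA was in 5.37% against 3.62% (Fisher adjusted p = 0.0418; within strata 1.13, adjusted p = 0.781). TATAAA was in 30.1% against 35.9% (Fisher adjusted p = 0.00107; within strata 0.954, adjusted p = 0.781), with 38.9% and 37.7% in peaks of replicate 1 alone. The A tract of 8 bases, in 19.1% against 16.3%, did not pass (Fisher's exact test, adjusted p = 0.0794) but did within GC strata (1.36, Cochran-Mantel-Haenszel chi-square test, adjusted p = 0.00231). TAATTA did not pass (13.8% against 16.4%, Fisher adjusted p = 0.0794), nor did the palindromes of TAAT with 2 or 3 bp between (1.71% and 2.26% of the members).

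The direction for CACTG depended on the distance from the summit. In the central 100 bp it was more frequent in the members, 25.3% against 18.8% (odds ratio 1.47, Fisher adjusted p = 8.65e-06), the reverse of the 200 bp window. Its occurrences per 100 peaks and 25 bp averaged 7.58 within 50 bp of member summits, 8.15 from 50 to 125 bp and 4.59 beyond 250 bp. In the conservative peaks these were 5.78, 12.3 and 5.19. The conservative peaks had a pair of shoulders around a centre poor in the word, and the members had a flat top.

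Within the members, summits differed from their own flanks in 167 of the 6-letter words, a background of 8.03% called (exact McNemar test). The 41 more frequent at the summit were led by ACAGTG, in 17.0% of summits and 7.31% of flanks, then GTGCAC (8.63% and 3.73%), ACACTG (15.01% and 6.998%), TACCTA (5.83% and 2.88%), CTACAC (8.48% and 4.28%) and CACTGA (15.01% and 7.62%). Of the 41, 4 held CACTG. The 126 less frequent were led by CCCGGG (0.311% and 1.4%), CCCGGA (0.778% and 2.88%), GGGCCC (0.700% and 2.41%), CCGGGA (1.24% and 3.58%), CCGGGC (1.79% and 5.13%) and GAGGAC (1.87% and 5.21%), and 99 of them held 4 or more G or C. The calls of the 126 came mostly with the members of replicate 1. Among the 361 members that replicate 2 listed, 45 words were called, which held 0 of the 126 and 5 of the 41. Among the 483 that replicate 1 listed, 645 were called, with 100 of the 126 and 26 of the 41. For the 41 these counts do not show dependence on replicate 1, as the subsets differ in size. Summit shares in replicate 1 alone and replicate 2 alone were 15.43% and 17.38% for ACAGTG and 9.09% and 9.12% for GTGCAC. They were 15.86% and 13.96% for ACACTG and 15.64% and 13.96% for CACTGA. None of these words was called between the classes (Fisher's exact test). In the background peaks the ratios of the 167 words had a median of 0.90 for the 41 and 1.22 for the 126, against 1.62 and 0.57 in the members, and none of the 167 passed a ratio of 1.5 in the members' direction. None of the 41 was called against the conservative peaks. Of the motifs, CACTG (1.53 times), GAGAGAG (2.06 times), TATAAA (1.30 times) and the A tract of 8 bases (1.38 times) were more frequent at member summits and CACCTG less (0.664 times). Of these, only CACTG was called both in the members that replicate 1 listed and in those that replicate 2 listed. The GAGAGAG call was lost without replicate 2, and the ratio was 0.529 in members of replicate 1 alone. The calls of TATAAA, the A tract and CACCTG were lost without replicate 1, and the ratio of TATAAA was 0.714 in members of replicate 2 alone. CACCTG was also not called against the right flank or in a 100 bp window.

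In position the pooled-only peaks were closer to the conservative list than to the background. A promoter summit, within 500 bp of a transcription start, was found for 512 of the members (39.8%), 35.8% of the conservative peaks and 15.2% of the background. The excess over the background had an odds ratio of 3.70 (Fisher's exact test, p = 3.50e-99 adjusted over 7 position classes). The excess over the conservative peaks was small (1.18, Fisher adjusted p = 0.0223) and did not pass within GC strata (1.13, adjusted p = 0.149) or with a window of 1000 bp (1.07, adjusted p = 0.340). Against conservative peaks in the members' signal range the ratio was 1.52 (Fisher adjusted p = 2.84e-07). For members at or above their median signal it was 1.45 (Fisher adjusted p = 0.000154). Intronic summits were fewer than among conservative peaks, 40.9% against 47.6% (Fisher adjusted p = 0.000166), and intergenic ones were 14.7% and 13.9% (adjusted p = 0.479).

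Coding exons gave the largest odds ratio in position. They held 32 members (2.49%) and 9 conservative peaks (0.276%; odds ratio 9.22, Fisher adjusted p = 3.12e-10), against 23.9% of the background. Of the 32, 26 were members that neither replicate listed, 5.75% of that class, and 3 each came from replicate 1 alone and replicate 2 alone. Conservative peaks that neither replicate listed had 0.995% (Fisher adjusted p = 0.000822). The 6 strongest lay nearest to the starts of CG7115, CG46025, trio, CG32264, CG9799 and Ctr1B with signals from 59.4 to 68.7 and GC from 41.0% to 66.5%; Ctr1B encodes a copper transporter.

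**Figure D5:**
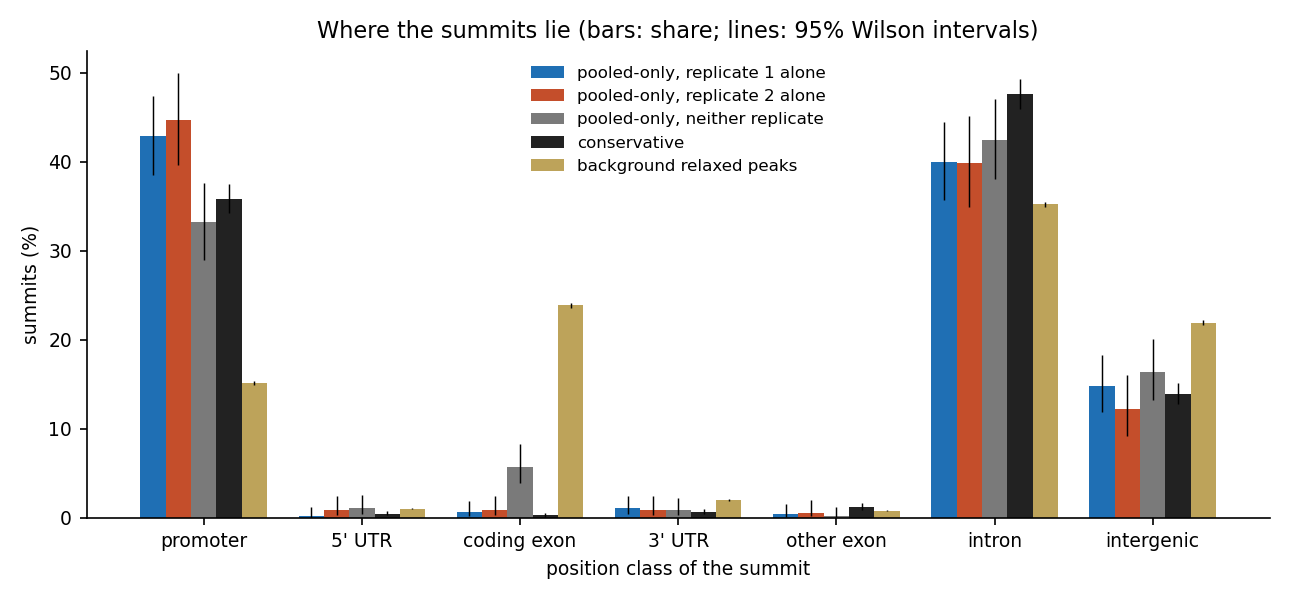
Share of summits (%) in 7 position classes for pooled-only peaks of replicate 1 alone, replicate 2 alone and neither replicate, conservative peaks and background; lines are 95% Wilson intervals. Coding exons hold 23.9% of the background, 5.75% of the members that neither replicate listed and under 1% of the other 3 sets.

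Promoter peaks sat mostly upstream of the start. Of the 512 promoter members 71.7% were upstream, against 81.7% of 1168 conservative promoter peaks (odds ratio 0.568, Fisher's exact test, p = 7.54e-06) and 41.1% of the background; the median summit lay 86.5 bp upstream in the members and 130 bp upstream in the conservative peaks. The band from 50 to 150 bp upstream held 14.2% of all members and 1.77% of the background. By replicate, 81.8% of 203 promoter members of replicate 1 alone and 65.0% of 157 of replicate 2 alone were upstream (odds ratio 2.42, Fisher exact p = 0.000384). No position class differed between these classes (promoter 42.9% and 44.7%, Fisher adjusted p = 1.00 in each of the 7 classes). Within the members of replicate 2 alone, 148 overlapped no relaxed peak of replicate 1, and 54.1% of these were at promoters against 37.9% of the other 203 (odds ratio 1.93, Fisher exact p = 0.00331); the share with GAGAGAG was 19.6% and 20.2%.

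Across chromosomes the members lay evenly on the large arms, at 9.29 to 10.4 per Mb, with none on chromosome 4, where the conservative list had 1. The X held 17.2% of the members and 19.6% of the conservative peaks (odds ratio 0.851, Fisher exact p = 0.0643). The gene CG11294 itself, at chrX:8691820-8693620, had no member summit nearby: the nearest lay 42766 bp from its start, and the nearest conservative summit 12237 bp.

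Some genes had a pooled-only summit near a start and no conservative one there. A gene is called reached here if a summit lay within 1000 bp of a start. Genes reached by members alone can hold conservative summits further off. From 2000 bp upstream to the gene end, ftz-f1 held 8 of these and Eip74EF 3. Of 14376 genes with any relaxed peak within 1000 bp of a start, 711 had a member summit there and no conservative one, a background of 4.95% called, from 479 distinct peaks; 145 more had both. The conservative peaks reached 1934 of these genes, or 13.5%. Gene lists are given by their counts beside these shares, with no test, and nothing particular to a list follows from them.

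Developmental regulators reached by members alone included 6 of 83 homeobox genes, where the conservative peaks reached 2. These were Dll (limb), so (eye), bcd (head), otp, oc (head) and ct (sensory organs). At Dll the 2 replicates had signals of 17.6 and 231, at so 44.2 and 26.5, at bcd 36.5 and 24.2, at otp 21.2 and 36.5 and at oc 21.3 and 39.8; ct had no relaxed peak in replicate 1 and 47.9 in replicate 2. Among 33 ecdysone response genes the members alone reached 3, Eip74EF, ftz-f1 and Eip63E, at signals of 73.1, 57.9 and 47.3. Eip74EF encodes an ETS factor and ftz-f1 a nuclear receptor of the prepupal response. None of the 3 was listed by replicate 1. The nuclear receptor genes numbered 2 of 17, ftz-f1 and ERR, the bHLH genes 3 of 33 (Max, sima and Fer3) and the muscle genes 2 of 23 (Zasp52 and Mef2).

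Signalling genes came in small numbers from either replicate. The EGF receptor pathway had 4 of 24: Krn, a ligand, with 86.1 and 17.7 in the replicates; rho, a ligand-processing protease, with 50.9 and 25.9; pnt, an ETS effector, with 20.1 and 51.1; and ru, another protease, with 14.5 and 43.7. The Hippo pathway had 2 of 14, the cadherin gene ft and the gene ex, both listed by replicate 1 alone. The Notch pathway had 2 of 21, with E(spl)m3-HLH at 116.8 and 21.1 and the receptor gene N at 34.1 and 24.5. One gene each came from the Wnt (fz2, of 25), Hedgehog (ptc, the receptor, of 12) and JAK STAT (Socs36E, an inhibitor, of 11) lists, all listed by replicate 2 alone, and from adhesion and axon guidance (Nrt, of 40). The BMP and activin list, with 20 genes, had 0.

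Genes of basic cell functions made up other small counts. Ribosomal proteins had 9 of 79 reached by members alone and 20 by conservative peaks; the 6 strongest were RpL26, RpS25, RpL23A, RpL24, RpL11 and RpL31, with signals from 61.3 to 81.9. Mitochondrial ribosomal proteins had 4 of 61 (mRpL39, mRpL37, mRpL34 and mRpS18B). At mRpL37 replicate 1 had 93.8 and replicate 2 no relaxed peak. The mRpL39 peak was also that of Prosbeta2, the only one of 39 proteasome genes, and 1 peak served both ERR and Atg18a, the only one of 18 cell death genes. The cell cycle had aurA and dap of 27 and cuticle proteins Cpr67Fa2 and Cpr49Ah of 74. Heat shock (17), transfer RNA (209), chemosensory receptor (136) and ion channel (37) genes had 0 each, while the conservative peaks reached 8, 14, 2 and 2 of them.

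Several members lay together in some long genes. From 2000 bp upstream to the gene end, ftz-f1 held 7 member summits beside 8 conservative ones. B4, Snoo, sbb and tai held 6 each, with 4, 11, 14 and 5 conservative summits; Snoo encodes a Ski-family protein and tai a coactivator of the ecdysone receptor. CG1677, Eip74EF, HmgD, Pura, lncRNA:CR44357 and mamo held 5 each. These genes span from 15.3 kb for HmgD to 239 kb for lncRNA:CR44357, and length was not adjusted for.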

How the data were processed

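The authors deposited peak lists on build dm6, per the labels: for each of the 2 replicates a relaxed ranked and a thresholded list, and for the series ranked, pooled and conservative IDR thresholded lists. The aligner, peak caller, read depth and signal scale are not given in the sources used here. The deposited signal column and the −log10 IDR score were used as the authors' own values for each peak. A peak counted as listed by a replicate if it overlapped a thresholded peak of that replicate by 1 bp or more. Its replicate signal was that of the strongest relaxed peak overlapping it. The ranked list of the replicate comparison was identified because its input signals recur in the replicates' lists. The members, motifs and gene lists were chosen with earlier results of these data known. Position classes came from Ensembl release 115 gene models of BDGP6, without transposable elements, and sequence from the RefSeq Release 6 genome. Peaks were tested with 2-sided Fisher's exact tests, exact McNemar tests (200 bp at the summit against 200 bp centred 500 bp to the left) and Cochran-Mantel-Haenszel tests, with Benjamini-Hochberg adjustment (SciPy 1.17.1, statsmodels 0.14.6), word and stratified tests checked on simulated data. Peaks are not replicates, and with depth unknown intervals cover only counting over peaks. Genes were named by strength of signal: nearest genes of the 20 strongest members, up to 6 genes a list (homeobox 12), the genes with most member summits and the neighbours of the threshold; the coding exon genes and those under replicate presence were chosen after their values were seen, as was the division by replicate.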

Additional observations from a re-analysis of the deposited data

How the results depend on the processing

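No paired analysis was possible because the samples form 1 group and no groups share replicate numbers. Of 87 alternative values, 64 kept direction and call, or for counts stayed within 1.5 times the main count; 23 did not and follow, and the cause was not tested. Odds ratios of members against conservative peaks without replicate 1 and without replicate 2 ranged, for promoters, from 1.18 to 1.38 (Fisher adjusted p = 0.267 without replicate 2), for low GC from 0.185 to 1.31, for TAATTA from 0.554 (adjusted p = 0.00400) to 1.16. Motifs above or below the flank then numbered 3 to 8, 6-letter words against the flank 45 to 645 and against conservative peaks 0 to 530. The promoter ratio no longer passed with a 1000 bp window (1.07) or within GC strata (1.13). The X share passed against pooled peaks shared with the conservative list (0.816), with no conservative summit within 500 bp (0.838) and with 1 peak per merged region (0.821). The CACTG ratio turned to 1.47 in 100 bp. Words against conservative peaks fell to 45 in the members' signal range and 8 in the 643 members of higher signal. A 5000 bp window gave 1443 genes. Of the settings chosen after seeing the data, conservative peaks with the same split lost the calls of GAGAGAG (0.497) and TAATTA (1.42), and TAATTA also lost it away from promoters (1.65) and within GC strata (1.36); the low GC difference by replicate kept its call in all 6 that were run, with odds ratios from 2.62 to 11.6. Of the 41 words higher at the summit against the left flank, 19 were also called against the right one and 21 in the members of higher signal; of the 126 lower these were 66 and 71. Presence in a list depends on an unknown depth, so absence from a replicate's list does not show absence of signal.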
